A study of Homo sapiens with 4 samples.

Results

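Gene expression after Cre was compared between 2 short-telomere lines, mock/cre+ and mock, both made from PC-3, the established epithelial cell line of a human prostate cancer metastasis. Members of the comparison were taken from the labels alone: of the 4 arrays in the series, these are the 2 labelled with short telomeres and basal hTERT, one line after Cre and one without it. All 54613 probe sets that are not Affymetrix controls were used, of 54675 in the table. Both lines carry basal hTERT (gene TERT, the catalytic subunit of telomerase), so the comparison holds Cre exposure plus any difference between the 2 lines, with no label of an hTERT change, and these cannot be told apart.

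The series set telomere-elongated PC-3 cells against control lines, in the presence and absence of exogenous hTERT. The other 2 arrays came from LhTERTL/cre+, with long telomeres and basal hTERT after Cre, and from LhTERTL, with long telomeres and overexpressed hTERT. Each line was measured on 1 array, so differences within either pair have no replicate check and no p-value, and the number of arrays limits the precision. The labels do not say whether a line is 1 clone or a pool, how Cre was given or how long before harvest, or what vector mock carries.

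Cre is a bacteriophage recombinase that cuts and rejoins DNA at loxP sites, and in mammalian cells it is commonly used to remove a gene flanked by such sites. The endoplasmic reticulum (ER) folds secreted and membrane proteins with its own chaperones, and when unfolded protein builds up, the sensors IRE1, PERK and ATF6 raise chaperones, degradation factors and, through ATF4 and CHOP, genes of amino acid supply. E2F transcription factors drive genes that license and copy DNA as cells enter S phase, and a later program of mitotic genes follows in G2.

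Values were taken as log2 intensities, since RMA, the method the submitters name, gives that scale, and every fold rests on this reading. They had been centred for each probe set on the median of the 4 arrays, so a value says how far an array stood from the middle of the 4 and no expression level is known. Differences are mock/cre+ minus mock, on the log2 scale, unless another pair is named. A gene's value is the mean over its probe sets, and "at least 2-fold" means a difference of at least 1 on this scale. In bulk RNA, fewer cells of a kind and less RNA per cell cannot be told apart.

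TERT could check the label of LhTERTL only. Its first probe set stood at -0.12 in mock/cre+ and 0.12 in mock, and at -0.16 in LhTERTL/cre+ and 3.54 in LhTERTL. The second stood at -0.06 in mock/cre+ and 0.06 in mock, and at 0.10 in LhTERTL/cre+ and -0.66 in LhTERTL. The first probe set was thus high only on the array labelled as overexpressing hTERT, and neither probe set separated mock/cre+ from mock by more than 0.24. The labels of mock/cre+, mock and LhTERTL/cre+, which share basal hTERT, could not be checked this way and were taken as given.

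Over all probe sets the root mean square difference of mock/cre+ from mock was 0.404, and 1554 probe sets were at least 2-fold apart. Mock/cre+ stood at 0.335 from LhTERTL/cre+ (871 probe sets) and 0.444 from LhTERTL (2307 probe sets). The smallest of the 6 distances was 0.265, between LhTERTL/cre+ and mock (294 probe sets). Mock therefore lay nearer to the Cre-treated long-telomere line than to its own Cre-treated counterpart.

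At the gene level 400 of 19775 genes were at least 2-fold higher in mock/cre+ (2.02%) and 128 were at least 2-fold lower (0.647%). At least 4-fold there were 57 higher (0.288%) and 7 lower (0.0354%), and at least 1.5-fold there were 1177 higher (5.95%) and 655 lower (3.31%). The median over all genes was -0.03, with 44.7% of genes above 0 and 55.1% below, and 90.7% of genes lay within 1.5-fold. Over probe sets 1127 were higher (2.06%) and 427 lower (0.782%), so 72.5% of those apart were higher. At least 1.5-fold these were 3305 (6.05%) and 2129 (3.9%), and at least 4-fold 169 (0.309%) and 18 (0.033%). The share higher at 2-fold depended on the scaling. It was 76.6% (1233 against 377) with the median difference subtracted and 55.1% (827 against 675) with both arrays quantile matched. Quantile matching gives the centred values of both arrays 1 distribution, so it removes any difference in their spread by construction.

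Of the 233 genes at least 2-fold apart with several probe sets, 213 had all of them on one side of 0. In 65 genes every probe set was at least 2-fold higher, and in 29 every one was at least 2-fold lower. Among all genes, those named for probe sets farthest apart in opposite directions were GOSR2, a SNARE protein of the Golgi (-0.90 to 0.99 over 9 probe sets), HSPA12A (-0.85 and 1.77) and ZFYVE16 (-0.77 to 0.95 over 5). Their means, at -0.44, 0.46 and -0.13, were under 2-fold.

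Among the genes with every probe set higher, RTN1, a reticulon of the ER membrane, led. It stood at 1.86 in mock/cre+ and -2.22 in mock, a difference of 4.09, and at -1.85 in LhTERTL/cre+ and 1.89 in LhTERTL. HAS2, a hyaluronan synthase, stood at 0.56 in mock/cre+ and -2.89 in mock, a difference of 3.45, with -0.56 in LhTERTL/cre+ and 1.44 in LhTERTL. In both genes mock was the lowest of the 4 arrays, and LhTERTL was as high as mock/cre+ or higher. IFI16, a nuclear DNA sensor, differed by 2.54, ANKRD22 by 2.42, GNG11, a G protein gamma subunit, by 2.42, and RRAGD, a Rag GTPase of amino acid signalling, by 2.19. ZNF521, a zinc finger protein, differed by 2.16. FABP4, a fatty acid binding protein, at 2.50, NOX5, a calcium-regulated NADPH oxidase, at 2.38, and MCM10, a replication initiation factor, at 2.19 were also higher in LhTERTL/cre+ than in LhTERTL, by 1.83, 0.99 and 1.79.

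Among the genes with every probe set lower, a pair of ER chaperones led. DNAJB9, an ER co-chaperone, stood at -2.30 in mock/cre+ and 0.11 in mock, a difference of -2.41, and at -0.11 in LhTERTL/cre+ and 0.33 in LhTERTL. HSPA5, the main ER chaperone BiP, stood at -2.01 in mock/cre+ and 0.10 in mock, a difference of -2.11, with 0.06 in LhTERTL/cre+ and 0.01 in LhTERTL. Mock/cre+ was the low array for both, and the other 3 lay between -0.11 and 0.33 for DNAJB9 and between 0.01 and 0.10 for HSPA5. AGR2, an ER disulfide isomerase of secretory epithelia, and CTH, cystathionine gamma-lyase, both differed by -1.87, and NUCB2, a calcium-binding protein, by -1.84. GFPT1, the entry enzyme of the hexosamine pathway, differed by -1.79 over 4 probe sets and SESN2, a stress-induced regulator of mTORC1, by -1.67. The other 3 were H4C8, a histone H4 gene, at -1.97, CLIP4 at -1.81 and FGF2, a growth factor, at -1.65.

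**Figure D1:**
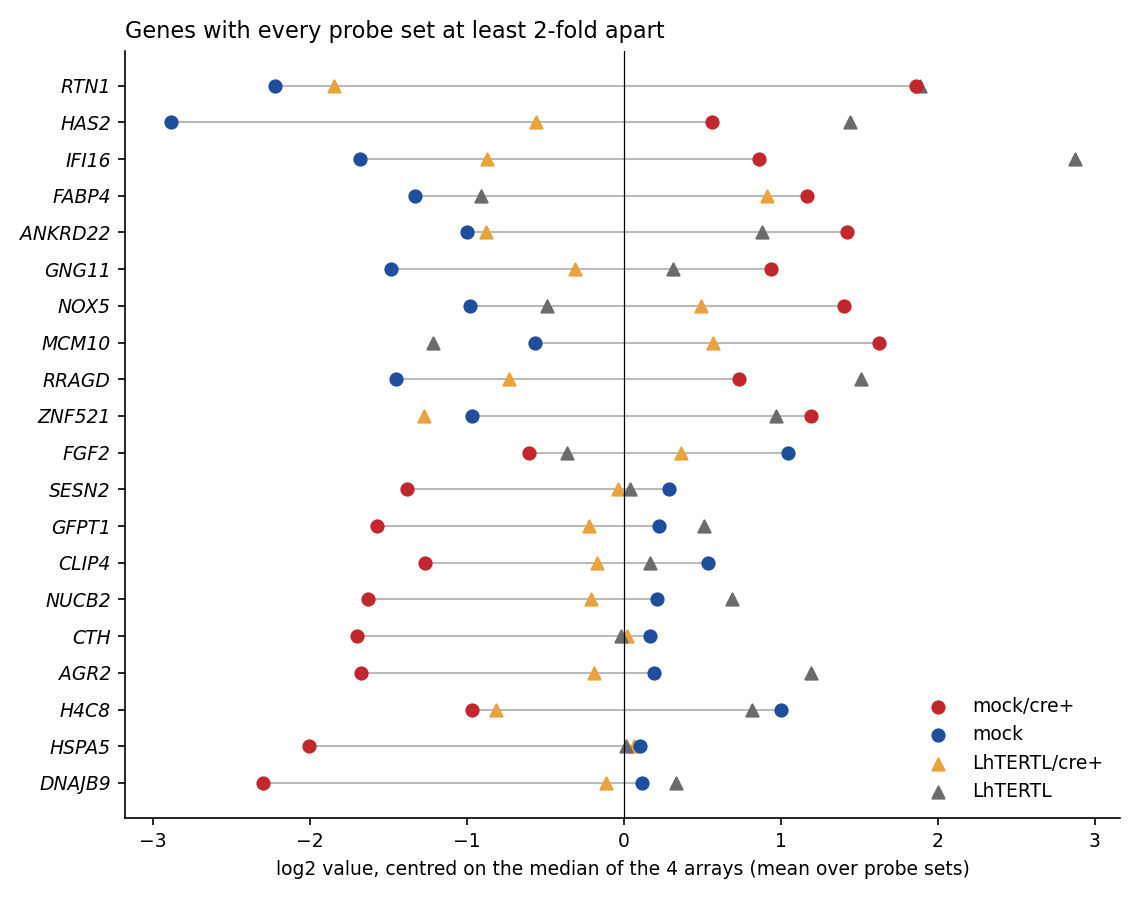
Centred log2 value on each array (horizontal axis; circles mock/cre+ and mock, triangles LhTERTL/cre+ and LhTERTL) for the 20 genes named by the rule that every probe set was at least 2-fold apart, with a line joining mock/cre+ to mock. Mock/cre+ stood apart alone at the left for DNAJB9 (-2.30) and HSPA5 (-2.01), whereas for RTN1 both mock/cre+ (1.86) and LhTERTL (1.89) were at the right.

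Taking single probe sets too, the gene farthest down was BHLHA15, a transcription factor of secretory cells, at -3.16, with -1.11 in the LhTERTL pair (LhTERTL/cre+ minus LhTERTL). The farthest up was PRTFDC1 at 4.12, with 1.36 in the LhTERTL pair. Both were named after their values were seen.

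The list of ER chaperones and folding enzymes was the lowest of the 46 lists examined. Its median was -1.30, against -0.03 over all genes. Of its 23 measured members, 14 were at least 2-fold lower and 0 higher, against 0.647% and 2.02% of all genes. Counts of every later list are to be read beside these same shares. By array the list's median was -1.15 in mock/cre+ and 0.10 in mock, and -0.09 in LhTERTL/cre+ and 0.56 in LhTERTL. Mock/cre+ was the lowest array for 21 of the 23 genes, against 30.5% of all genes. It was also the lowest for 117 of the 128 genes at least 2-fold lower (91.4%). Such a rank is therefore no separate support for a list's difference, here or below. The list's median in the LhTERTL pair was also below 0, at -0.63, but there LhTERTL was the array away from 0. Differences were below 0 in both pairs for 21 of the 23 genes, against 5305 of all 19775 genes.

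After DNAJB9 and HSPA5 came SDF2L1, a cofactor of ER folding, at -1.80 in mock/cre+ and -0.04 in mock, a difference of -1.77. HYOU1, the nucleotide exchange factor of BiP, stood at -1.66 in mock/cre+ and 0.11 in mock, a difference of -1.76. The glycoprotein chaperones and isomerases followed with smaller differences: HSP90B1, the ER form of HSP90, at -1.35, PDIA4 at -1.37, calreticulin (CALR) at -0.91 and calnexin (CANX) at -0.44. Both oxidases that recharge the isomerases were measured and they differed from each other, ERO1B at -1.47 and ERO1A at 0.24. ERO1A was the only member of the list above 0.

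ER-associated degradation factors and unfolded protein sensors had a median of -0.64, with 6 of 20 measured members (22 listed) at least 2-fold lower and 0 higher. SEL1L, the adaptor of the HRD1 ubiquitin ligase, stood at -1.38 in mock/cre+ and 0.04 in mock, a difference of -1.42 (probe sets -1.82 to -0.81). HERPUD1, another component of that ligase complex, differed by -1.14, ERN1, which encodes the sensor IRE1, by -1.11, and EDEM1, which directs misfolded glycoproteins to disposal, by -1.08. The probe sets of HERPUD1 (-1.97 and -0.31) and ERN1 (-2.12 to -0.17) were far apart from each other. ATF6 stood at -0.80 and XBP1, the transcription factor activated by IRE1, at -0.74. Mock/cre+ was the lowest array for 18 of the 20.

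The vesicle coat and glycosylation genes of ER to Golgi transport had a median of -0.44, with 3 of 28 measured members (30 listed) at least 2-fold lower and 0 higher. Besides GFPT1 these were the COPII coat subunits SEC24D at -1.14 and SEC31A at -1.01. SEC61A1, the channel through which proteins enter the ER, stood at -0.57 in mock/cre+ and 0.27 in mock, a difference of -0.83. The median of this list in the LhTERTL pair was -0.40, about as low.

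Targets of ATF4 and CHOP had a median of -0.80, with 10 of 36 members at least 2-fold lower and 1 higher. Of all genes, 0.647% were lower and 2.02% higher by that much. DDIT3, which encodes CHOP, stood at -2.36 in mock/cre+ and 0.32 in mock, a difference of -2.68, with 0.21 in LhTERTL/cre+ and -0.21 in LhTERTL. CHAC1, an enzyme that degrades glutathione, stood at -1.01 in mock/cre+ and 0.81 in mock, a difference of -1.81, and SLC3A2, the heavy chain of amino acid transporters, at -1.45 in mock/cre+ and 0.28 in mock, a difference of -1.72. The 1 member at least 2-fold higher was VLDLR, a lipoprotein receptor, at 1.31, and ATF4 itself differed by -0.54. Mock/cre+ was the lowest array for 31 of the 36, while the list's median in the LhTERTL pair was -0.10.

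**Figure D2:**
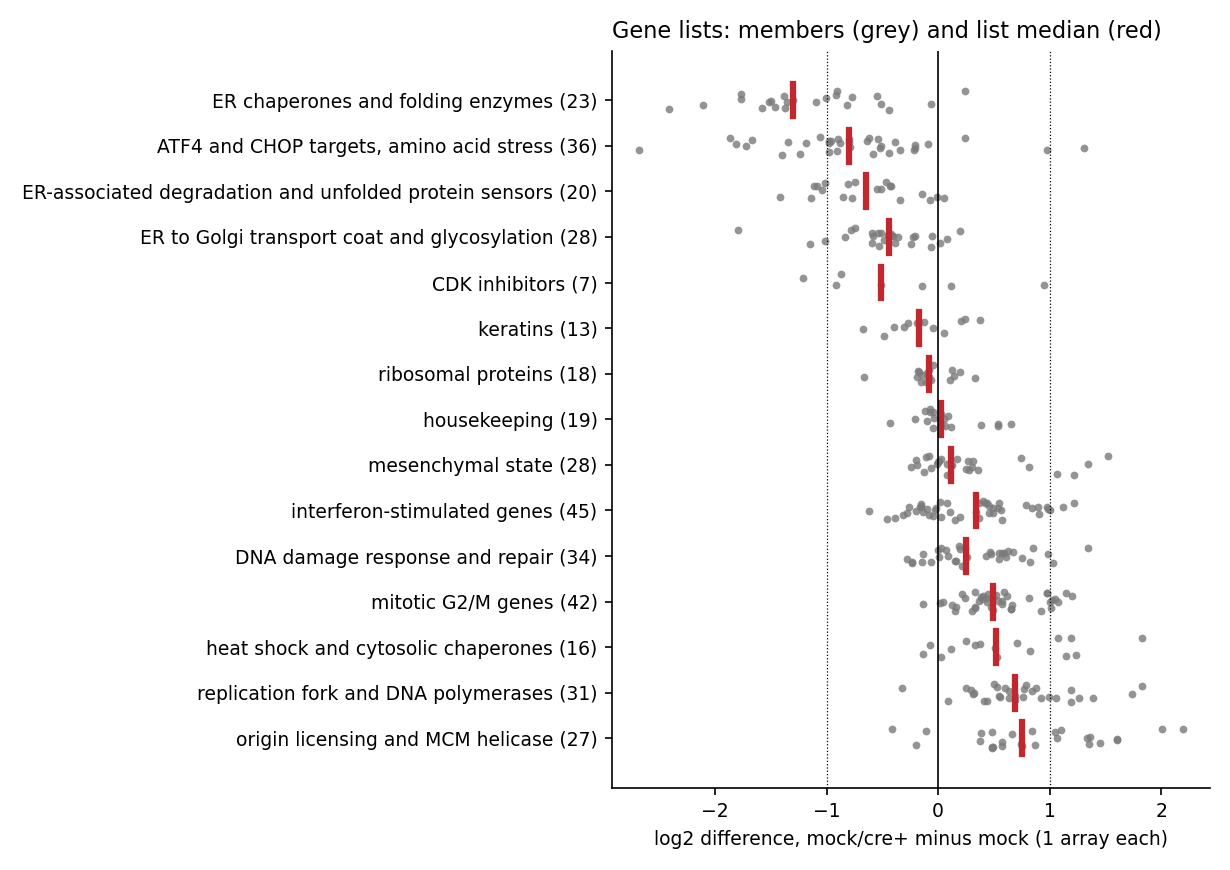
Log2 difference of mock/cre+ minus mock (horizontal axis, 1 array each) for the measured members of 15 of the 46 gene lists (grey points, number in brackets) with the list's median (red bar) and dotted lines at 2-fold. Medians ran from -1.30 for ER chaperones to 0.76 for origin licensing.

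Promoters are shown for 3 genes of ER folding and 2 ATF4 targets, since these lists lay lowest and their known response elements could be searched for. Sequences are from RefSeq (GRCh38.p14), from 250 bases before to 50 after each gene's start, 5′ to 3′ on the gene's strand. Capitals mark, in the first 3, the ER stress element, spelled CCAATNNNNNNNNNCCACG and searched on both strands, so that a match on the other strand reads as its complement. In the last 2 they mark the core of the C/EBP-ATF response element, TGATGNAA, in the same way. HSPA5 lies at chr9:125241294-125241593 (minus strand), ERO1B at chr1:236281909-236282208 (minus), CRELD2, an ER folding factor that differed by -1.38, at chr22:49918384-49918683 (plus), CHAC1 at chr15:40953221-40953520 (plus) and SLC3A2 at chr11:62881449-62881748 (plus).
HSPA5: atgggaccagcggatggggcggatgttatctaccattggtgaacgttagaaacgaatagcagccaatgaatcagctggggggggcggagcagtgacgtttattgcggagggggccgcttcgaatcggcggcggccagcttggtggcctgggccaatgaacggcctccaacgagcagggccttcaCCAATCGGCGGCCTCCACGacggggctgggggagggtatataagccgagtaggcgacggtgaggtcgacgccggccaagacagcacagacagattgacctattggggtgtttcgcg
ERO1B: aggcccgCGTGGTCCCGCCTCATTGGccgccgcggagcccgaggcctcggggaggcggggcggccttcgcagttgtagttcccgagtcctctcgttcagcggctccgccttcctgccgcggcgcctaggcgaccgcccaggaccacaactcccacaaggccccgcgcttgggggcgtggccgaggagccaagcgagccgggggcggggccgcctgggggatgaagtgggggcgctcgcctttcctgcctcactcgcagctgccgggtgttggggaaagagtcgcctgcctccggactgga
CRELD2: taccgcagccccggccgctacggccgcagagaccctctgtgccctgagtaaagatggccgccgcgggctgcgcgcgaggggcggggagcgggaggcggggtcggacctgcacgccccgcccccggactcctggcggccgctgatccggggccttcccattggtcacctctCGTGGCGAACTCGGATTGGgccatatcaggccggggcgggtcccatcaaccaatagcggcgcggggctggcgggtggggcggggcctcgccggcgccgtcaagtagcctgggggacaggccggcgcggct
CHAC1: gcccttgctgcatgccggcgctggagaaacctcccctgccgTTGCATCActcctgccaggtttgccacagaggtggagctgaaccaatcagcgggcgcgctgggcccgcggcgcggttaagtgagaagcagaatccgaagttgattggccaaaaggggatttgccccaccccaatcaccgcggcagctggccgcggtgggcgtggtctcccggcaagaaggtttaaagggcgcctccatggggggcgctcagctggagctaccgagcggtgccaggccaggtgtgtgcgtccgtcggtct
SLC3A2: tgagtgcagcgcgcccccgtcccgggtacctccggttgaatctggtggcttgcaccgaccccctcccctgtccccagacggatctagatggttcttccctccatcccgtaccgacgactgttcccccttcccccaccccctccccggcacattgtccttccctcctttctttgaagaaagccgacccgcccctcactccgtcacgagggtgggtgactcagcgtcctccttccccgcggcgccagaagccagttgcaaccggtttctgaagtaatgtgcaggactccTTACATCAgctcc

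The ER stress element was found in 16 of 15384 measured genes with a promoter (0.104%). It was found in 6 of 21 ER chaperone and folding genes (28.6%), in 1 of 18 ER-associated degradation and sensor genes (5.56%), in 5 of the 105 genes at least 2-fold lower (4.76%) and in 0 of the 316 genes at least 2-fold higher. The C/EBP-ATF core was found in 2.62% of all promoters, in 6 of 31 ATF4 and CHOP targets (19.4%), in 9 of the 105 genes lower (8.57%) and in 10 of the 316 genes higher (3.16%). Many of the lists' genes are known for these elements, so the shares describe the lists and are no independent evidence, and a match is not a bound site.

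Genes of DNA replication stood on the other side. The origin licensing and MCM helicase list had the highest median of the 46, at 0.76, with 11 of 27 members at least 2-fold higher and 0 lower, against 2.02% and 0.647% of all genes. Its median by array was 0.55 in mock/cre+ and -0.26 in mock, and 0.22 in LhTERTL/cre+ and -0.62 in LhTERTL. Mock/cre+ was the highest array for 23 of 27, against 24.1% of all genes and 301 of the 400 genes at least 2-fold higher (75.25%). Differences were above 0 in both pairs for 22 of the 27, against 4554 of all 19775 genes.

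MCM10, which joins the helicase at initiation, stood at 1.62 in mock/cre+ and -0.57 in mock, a difference of 2.19 (probe sets 1.85 to 2.45). GINS1, a subunit of the active helicase, stood at 1.58 in mock/cre+ and -0.43 in mock, a difference of 2.01. GMNN, geminin, which blocks a second licensing, differed by 1.60, and MCM3, a subunit of the MCM ring, by 1.60. These 4 were also higher in LhTERTL/cre+ than in LhTERTL, by 1.79, 0.88, 0.50 and 1.20. The loading factors CDT1 and CDC6 did not follow them in size: CDT1 differed by 0.50 and CDC6 by -0.41, one of 3 members of the list below 0.

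The replication fork and DNA polymerase list had a median of 0.69, with 7 of 31 members at least 2-fold higher and 0 lower. UHRF1, which maintains DNA methylation behind the fork, stood at 1.46 in mock/cre+ and -0.37 in mock, a difference of 1.83. PCNA, the sliding clamp, stood at 1.29 in mock/cre+ and -0.45 in mock, a difference of 1.74, and POLE2, a subunit of polymerase epsilon, differed by 1.39. WDHD1, which ties the polymerase to the helicase, differed by 1.26. All 4 were at least 2-fold higher in the LhTERTL pair too, by 1.89, 1.18, 2.66 and 1.59, where 1.52% of all genes were higher and 2.29% lower by that much.

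Deoxynucleotide synthesis genes had a median of 0.44, with 2 of 14 measured members (15 listed) at least 2-fold higher. These were TK1, thymidine kinase, at 1.15, and RRM2, the small subunit of ribonucleotide reductase, at 1.03, and in the LhTERTL pair they differed by 1.44 and 2.36. DCK, deoxycytidine kinase, stood at 0.97 and MTHFD1, a folate enzyme, at 0.85. The E2F family, G1 cyclins and their kinases had a median of 0.20, or 0.46 with the most variable probe set per gene, with 3 of 24 at least 2-fold higher. These were cyclin E2 (CCNE2) at 1.58, E2F8, a repressor of the family, at 1.47, and SKP2, the ubiquitin ligase subunit that marks p27 for degradation, at 1.34 (probe sets 0.34 to 2.04).

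The 42 mitotic genes had a median of 0.49, and 41 stood above 0. At least 2-fold, 7 were higher and 0 lower, against 2.02% and 0.647% of all genes. KIF20A, a kinesin of cytokinesis, stood at 0.96 in mock/cre+ and -0.24 in mock, a difference of 1.20, and TTK, a spindle checkpoint kinase, at 0.61 in mock/cre+ and -0.54 in mock, a difference of 1.15. CDK1, the mitotic kinase, differed by 1.08, with its 4 probe sets between 0.94 and 1.20, and ANLN, a cytokinesis scaffold, by 1.05. Mock/cre+ was the highest array for 39 of the 42.

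CDK inhibitors had a median of -0.51 over 7 measured genes (8 listed), between -0.71 and -0.40 under the alternatives, with 1 at least 2-fold lower. CDKN2B (p15) stood at -0.81 in mock/cre+ and 0.41 in mock, a difference of -1.21. CDKN1A (p21) differed by -0.92 and CDKN1B (p27) by -0.87. CDKN3, a phosphatase that rises in dividing cells, went the other way at 0.95. CDKN1A had its largest value in LhTERTL, at 2.09, so its difference in the LhTERTL pair was -2.43.

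**Figure D3:**
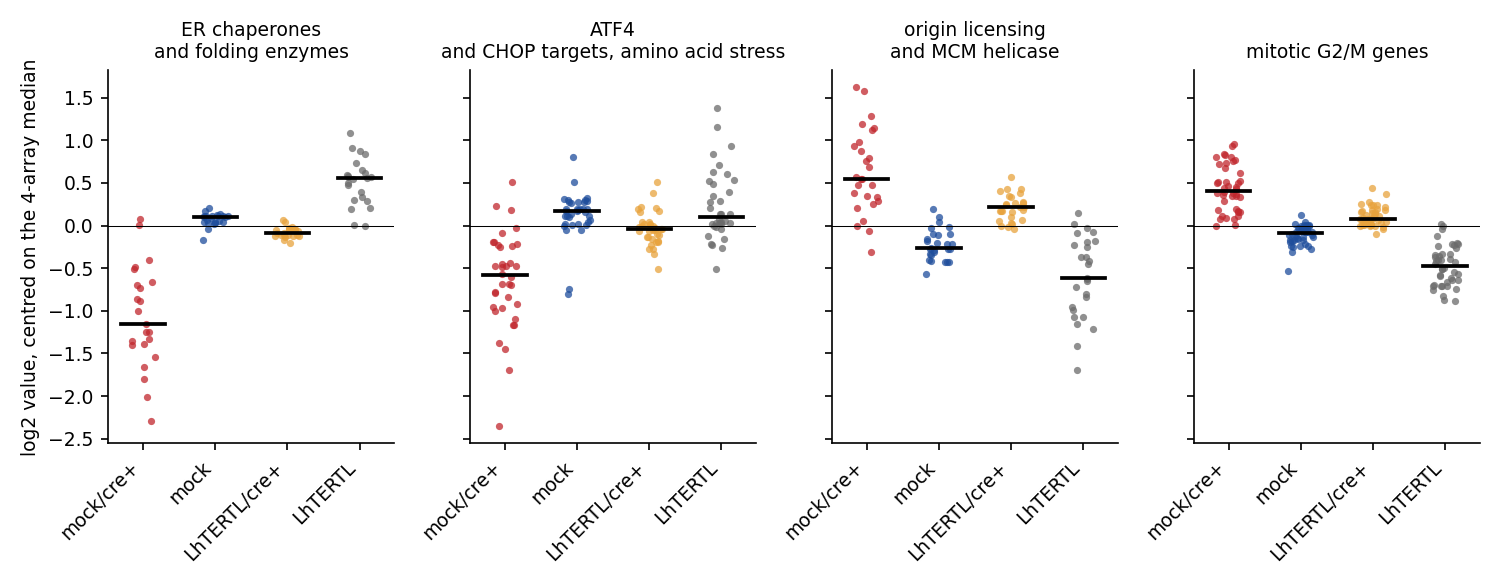
Centred log2 values of the members of 4 gene lists on each array (points) with the list's median (bar). By median, mock/cre+ was lowest for ER chaperones at -1.15, with 0.10 in mock, -0.09 in LhTERTL/cre+ and 0.56 in LhTERTL. For origin licensing mock/cre+ was highest at 0.55, with -0.26 in mock, 0.22 in LhTERTL/cre+ and -0.62 in LhTERTL.

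Promoters of replication and mitosis genes are shown for the 2 largest members of the licensing list with an E2F site and for CDK1. Capitals mark an E2F site, TTTCGCGC or TTTGGCGC on either strand, in GINS1 and MCM3, and the core of the cell cycle genes homology region, TTTGAA on either strand, in CDK1. GINS1 lies at chr20:25407423-25407722 (plus), MCM3 at chr6:52284693-52284992 (minus) and CDK1 at chr10:60778081-60778380 (plus). The CDK1 window also holds an E2F site, left in lower case, and none of the motifs searched overlap each other in the windows shown.
GINS1: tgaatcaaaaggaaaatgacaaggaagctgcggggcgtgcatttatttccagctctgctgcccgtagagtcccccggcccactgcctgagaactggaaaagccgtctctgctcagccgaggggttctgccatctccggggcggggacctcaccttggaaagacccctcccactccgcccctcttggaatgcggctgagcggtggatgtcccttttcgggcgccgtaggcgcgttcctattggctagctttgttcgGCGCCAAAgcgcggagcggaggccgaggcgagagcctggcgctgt
MCM3: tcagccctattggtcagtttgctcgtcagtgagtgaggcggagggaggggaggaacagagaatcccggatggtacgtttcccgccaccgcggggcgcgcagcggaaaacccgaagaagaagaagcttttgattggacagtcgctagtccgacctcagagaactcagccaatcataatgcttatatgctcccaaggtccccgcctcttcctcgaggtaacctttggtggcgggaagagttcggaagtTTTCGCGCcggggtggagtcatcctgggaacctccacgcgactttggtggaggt
CDK1: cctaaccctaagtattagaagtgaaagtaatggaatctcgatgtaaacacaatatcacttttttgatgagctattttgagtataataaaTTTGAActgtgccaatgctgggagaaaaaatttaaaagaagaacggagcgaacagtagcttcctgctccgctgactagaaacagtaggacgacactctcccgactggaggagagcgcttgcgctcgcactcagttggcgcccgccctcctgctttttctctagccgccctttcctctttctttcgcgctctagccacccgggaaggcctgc

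An E2F site was found in 1.55% of all 15384 promoters, in 8 of 24 licensing genes (33.3%), in 5 of 27 fork genes (18.5%), in 11 of the 316 genes at least 2-fold higher (3.48%) and in 1 of the 105 genes lower (0.952%). The short TTTGAA core was found in 11.9% of all promoters, in 26 of 36 mitotic genes (72.2%), in 53 of the 316 genes higher (16.8%) and in 9 of the 105 lower (8.57%). Many genes of these lists are likewise known for these sites, so the shares describe the lists and are no independent evidence. A match is not a bound site.

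The list of replication-dependent and variant histone genes was divided, with 9 members above 0 and 9 below. Those above included the variants H2AZ2 (0.52), H2AZ1 (0.35) and H3-3A (0.29), and SLBP (0.49), not itself a histone. The list's median was -0.12 over 18 measured genes (27 listed), or -0.27 without _x_at and _s_at probe sets. At least 2-fold, 4 were lower and 0 higher. H2BC21 stood at -0.87 in mock/cre+ and 1.32 in mock, a difference of -2.19, H4C8 at -0.97 in mock/cre+ and 1.001 in mock, a difference of -1.97, and H2AC6 differed by -1.60. For H2BC4, at 0.01 in mock/cre+ and 1.91 in mock, the mock array alone was high. Histone genes are near-identical copies, so probes may not tell them apart.

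DNA damage response and repair genes had a median of 0.25, or 0.45 with the most variable probe set per gene, with 2 of 34 measured members (41 listed) at least 2-fold higher and 0 lower. These were BARD1, the partner of BRCA1, at 1.34 and the helicase BRIP1 at 1.03. BLM stood at 0.98 and EXO1 at 0.85. PC-3 lacks functional p53, and the list of p53 targets had a median of -0.09 (21 measured of 24), or -0.21 with the most variable probe set, with SESN2 and GADD45A (-1.03) at least 2-fold lower and PLK2 just under 2-fold higher (0.995). Apoptosis regulators had a median of -0.01 (25 measured of 29) with 0 at least 2-fold apart, BID being highest at 0.93. Over all genes 2.02% were higher and 0.647% lower by that much, so 0 of 25 says little.

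Cytosolic chaperones of the heat shock response went the other way from the ER chaperones. Their median was 0.52, with 5 of 16 measured members (20 listed) at least 2-fold higher and 0 lower. HSPB1, a small heat shock protein, stood at 0.86 in mock/cre+ and -0.97 in mock, a difference of 1.82, and at -0.86 in LhTERTL/cre+ and 0.95 in LhTERTL. BAG3, a co-chaperone of HSP70, differed by 1.24, HSPH1 by 1.19 and DNAJA1 by 1.15, and HSPE1, the mitochondrial co-chaperonin, by 1.08. The list's median in the LhTERTL pair was -0.22. The median of 0.52 in the mock pair became 0.12 without probe sets named _x_at or _s_at. That selection also leaves out HSPB1 and BAG3 altogether, since their only probe sets are named _s_at.

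Autophagy and lysosome genes had a median of -0.17 (26 measured of 28). At least 2-fold, 3 were lower and 0 higher, against 0.647% and 2.02% of all genes. WIPI1, which binds phosphoinositides on the forming autophagosome, stood at -1.37 in mock/cre+ and 0.22 in mock, a difference of -1.58, and differed by -1.61 in the LhTERTL pair. GABARAPL1, an ATG8 family protein, differed by -1.33 and ULK1, the initiating kinase, by -1.10.

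Antioxidant genes of the NRF2 type had a median of 0.06 (24 measured of 26), which was -0.04 without _x_at and _s_at probe sets, with AKR1B10 (1.48) and AKR1C3 (1.09), aldo-keto reductases, higher and SLC7A11, the cystine transporter, lower (-1.35). In the LhTERTL pair the list's median was -0.72, with AKR1B10 at -4.62. Metallothionein and zinc genes had a median of 0.14, with the zinc transporter SLC39A10 at 1.29. Cholesterol and fatty acid genes had a median of -0.06 (23 measured of 30), with STARD4, a sterol carrier, at -1.03.

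Interferon-stimulated genes had a median of 0.34 (45 measured of 47). At least 2-fold, 3 were higher and 0 lower, against 2.02% and 0.647% of all genes. HERC5, the ISG15 ligase, stood at 1.13 in mock/cre+ and -0.08 in mock, a difference of 1.22, IFI44L differed by 1.12 and GBP1, a guanylate-binding protein, by 1.002 (probe sets 0.05 to 1.51). The genes of DNA and RNA sensing had a median of 0.02 (18 measured of 19). Of these IFI16 was at 0.86 in mock/cre+ and -1.68 in mock, whereas CGAS, the cytosolic DNA sensor, differed by 0.58 and IRF7 by -0.98. Antigen presentation genes had a median of 0.14 (24 measured of 25), which was -0.02 without _x_at and _s_at probe sets, with the immunoproteasome subunit PSMB9 at 1.61.

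Inflammatory genes had a median of 0.10 (30 measured of 32), with 2 at least 2-fold higher, against 2.02% of all genes. CXCL6, a neutrophil-attracting chemokine, stood at 1.44 in mock/cre+ and -0.97 in mock, a difference of 2.41, and at 0.97 in LhTERTL/cre+ and -1.18 in LhTERTL. IL1B differed by 1.32 and CXCL8 by 0.999, just under 2-fold. Immediate early genes had a median of -0.10 (24 measured of 25), with the nuclear receptor NR4A2 at -1.14.

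Genes of cell state showed single large members and small medians. Above 0 were 19 of 28 mesenchymal, 17 of 34 epithelial and 4 of 13 keratin genes, against 44.7% of all genes. Mesenchymal genes had a median of 0.12, or 0.28 with the most variable probe set per gene, with 4 of 28 measured members at least 2-fold higher, namely NT5E (ecto-5′-nucleotidase, 1.53), CCN2 (a matricellular growth factor, 1.35), TGFBI (1.21) and CDH11 (a cadherin, 1.06). Epithelial genes had a median of 0.00, which was -0.13 without _x_at and _s_at probe sets. Among them CD24, a surface glycoprotein, was at 0.44 in mock/cre+ and -1.36 in mock and GRHL2, an epithelial transcription factor, differed by 1.65, while periplakin (PPL) differed by -1.45 and ESRP1, an epithelial splicing factor, by -1.27. Keratins had a median of -0.17, with 0 of 13 at least 2-fold apart, against 2.02% of all genes higher and 0.647% lower.

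Secreted and signalling genes also showed single large members and small medians. Above 0 were 25 of 33 matrix genes, 18 of 22 proteases and inhibitors, 10 of 13 S100 genes and 16 of 25 BMP and TGF-beta genes. Stem cell genes (9 of 17) and cancer-testis antigens (7 of 14) were more evenly split. Of all genes, 44.7% were above 0, 2.02% at least 2-fold higher and 0.647% at least 2-fold lower. The BMP and TGF-beta list had a median of 0.11, with 4 of 25 higher: ID3, a BMP target, stood at 1.65 in mock/cre+ and -0.11 in mock, and NOG (1.69), BMP2 (1.02) and BMP4 (1.002) followed. Matrix genes had a median of 0.13, or 0.31 with the most variable probe set per gene, with COL6A3 at 1.74, SPARC at 1.35, COL4A1 at 1.11 and LAMA5 at -1.18. Proteases and inhibitors had a median of 0.13, with the kallikrein KLK6 at 2.21, TIMP3 at 1.40, ADAMTS1 at 1.31 and the elastase inhibitor PI3 at -1.45. S100 genes had a median of 0.05, with S100P at -2.14. Stem cell genes had a median of 0.06, with CD24 and ALDH1A1 (1.05) higher, and cancer-testis antigens -0.03, with PRAME at 1.35.

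Lists of general cell machinery had small medians. Proteasome genes (17 of 20) and hypoxia and glycolysis genes (24 of 32) were mostly above 0, against 44.7% of all genes. Also above 0 were 10 of 19 housekeeping, 5 of 18 ribosomal protein, 10 of 23 MYC list and 15 of 25 oxidative phosphorylation genes. Medians were 0.02 for housekeeping genes, -0.08 for ribosomal proteins, -0.04 for MYC targets and ribosome biogenesis, 0.03 for oxidative phosphorylation, 0.21 for the proteasome and 0.21 for hypoxia and glycolysis, with 0 members at least 2-fold apart in any of these 6. The telomerase and telomere protection list had a median of -0.01 (21 measured of 23) with 0 at least 2-fold apart, its largest difference being TERF2IP, the shelterin component RAP1, at -0.74. For markers of other cell types, medians were -0.10 for leukocytes (5 of 7 measured), 0.07 for fibroblasts, -0.01 for endothelium, -0.09 for prostate luminal cells, 0.02 for prostate basal cells and -0.09 for neuroendocrine cells. The 1 marker at least 2-fold apart among these was HOXB13, a prostate lineage factor, at 1.002. Over all genes 2.02% were higher and 0.647% lower by that much, so counts of 0 or 1 say little in lists this small. The luminal median was 0.14 without _x_at and _s_at probe sets and -0.21 with the most variable probe set, and the fibroblast median was -0.0067 and 0.34. Several other medians of these lists, all within 0.1 of 0, also changed sign with the gene summary, probe set selection or scaling, so no direction is read from them.

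The second pair with and without Cre, LhTERTL/cre+ and LhTERTL, shares no array with the first but also differs in hTERT. Of 19775 genes, 52 were at least 2-fold higher with Cre in both pairs (0.263%), which is 13% of the 400 genes higher in mock/cre+, and 14 were at least 2-fold lower in both (0.0708%), which is 10.9% of the 128. Over probe sets there were 135 (0.247%) and 49 (0.0897%). Of the 52 genes, 5 were among the 27 licensing genes and 4 among the 31 fork genes. In the opposite ways, 116 genes were higher in mock/cre+ and lower in LhTERTL/cre+ (0.587%), 29% of the 400, and 6 were the other way round (0.0303%). Over all probe sets the differences of both pairs had a Pearson correlation of -0.0912 and a Spearman correlation of 0.00755, given as a description.

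The genes named as higher in both pairs were CXCL6 (2.41 in the mock pair and 2.15 in the LhTERTL pair), UHRF1 (1.83 and 1.89), FABP4 (2.50 and 1.83), MCM10 (2.19 and 1.79), ZNF367 (1.75 and 2.49) and DTL, a ubiquitin ligase subunit of S phase (1.70 and 1.74). Those named as lower in both were LAMP3, a lysosomal membrane protein (-1.72 and -2.54), H4C8 (-1.97 and -1.63), WIPI1 (-1.58 and -1.61), AGR2 (-1.87 and -1.38), ESRP1 (-1.27 and -2.64) and ERO1B (-1.47 and -1.20). In these both Cre arrays lay on the same side of 0, but not always close together. A WIPI1 probe set stood at -1.40 in mock/cre+, -0.25 in LhTERTL/cre+ and 0.25 in mock. An H4C8 probe set stood at -0.93 in mock/cre+, -0.80 in LhTERTL/cre+ and 0.96 in mock. Centring puts the 2 middle arrays at equal distances either side of 0, so the side alone does not show which arrays are alike.

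In the 116 genes higher in mock/cre+ and lower in LhTERTL/cre+, the medians of mock/cre+ and LhTERTL lay above 0 and those of mock and LhTERTL/cre+ below. Their median was 0.73 in mock/cre+ and -0.93 in mock, and -0.69 in LhTERTL/cre+ and 1.02 in LhTERTL. CYP1B1, a cytochrome P450 of steroid and xenobiotic oxidation, stood at 1.79 in mock/cre+ and -1.99 in mock, and at -1.79 in LhTERTL/cre+ and 3.78 in LhTERTL, though its 4 probe sets differed between 0.01 and 6.12 in the mock pair. ZIC2, a zinc finger transcription factor, stood at 1.79 in mock/cre+ and -1.79 in mock, and at -1.95 in LhTERTL/cre+ and 3.68 in LhTERTL. CSTA, cystatin A, and COXFA4L3 were split the same way, though mock/cre+ was their highest array, with differences of 4.02 and 3.77 in the mock pair and -3.69 and -3.16 in the LhTERTL pair.

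**Figure D4:**
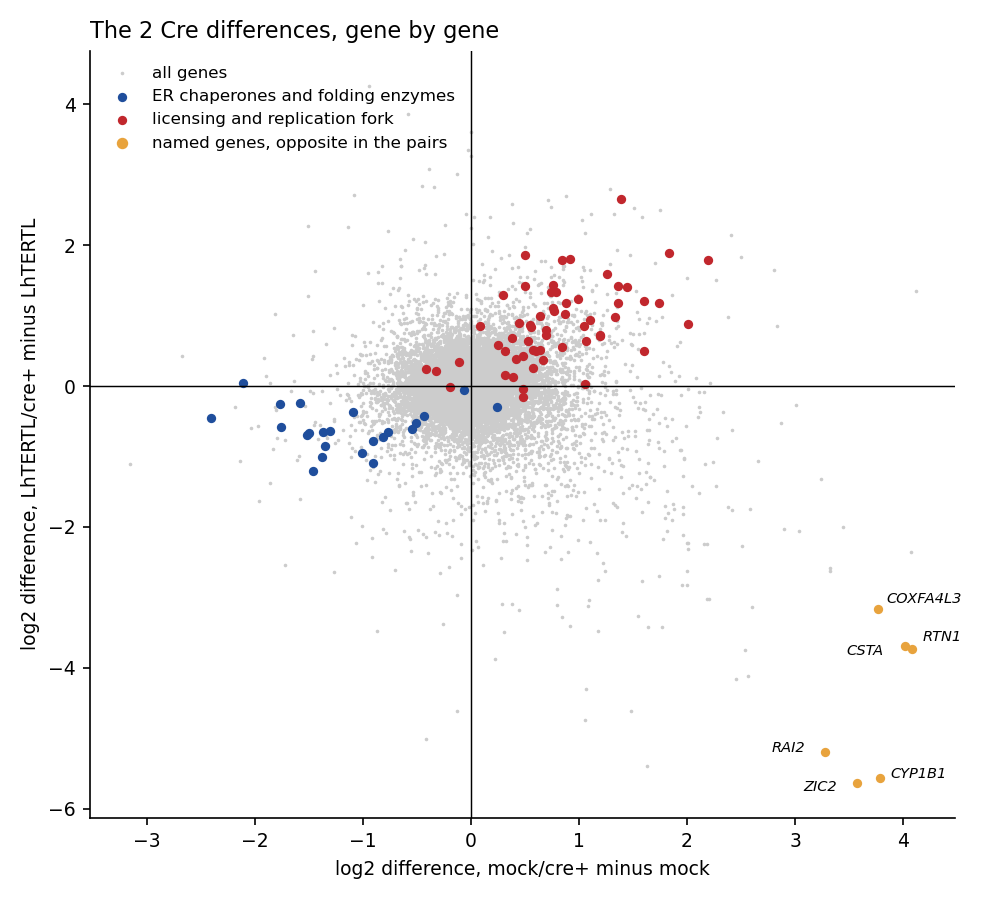
Log2 difference of LhTERTL/cre+ minus LhTERTL (vertical axis) against that of mock/cre+ minus mock (horizontal axis) for 19775 genes (grey), with ER chaperones in blue, licensing and replication fork genes in red and 6 genes of opposite direction in orange. Red points lay mostly above 0 on both axes (medians 0.76 and 0.69 in the mock pair), and RAI2, ZIC2 and CYP1B1 lay at the lower right.

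Cre status was also fitted over both pairs with limma, with the telomere group as a block and 1 residual degree of freedom. Called were 0 of 54613 probe sets (Benjamini-Hochberg adjusted, two-sided; smallest adjusted p = 0.952) and 0 of 19775 genes (smallest adjusted p = 0.915). At an unadjusted p under 0.05 limma gave 1631 probe sets higher and 1138 lower, where 2730.65 would be reached by chance, and 670 and 390 genes, where 988.75 would be. CXCL6 had the smallest adjusted p among genes, with a mean difference of 2.28 ± 0.14 (SE, n = 2 arrays with Cre and 2 without), higher in both pairs (limma, adjusted p = 0.915). UHRF1 differed by 1.86 ± 0.12 and H4C8 by -1.80 ± 0.15 (limma, adjusted p = 0.915 for both). HSPA5, which stood apart in the mock pair only, differed by -1.03 ± 0.62 (limma, adjusted p = 0.964). In simulated data with 200 changes at each of 4-, 8- and 32-fold, the probe set fit found 0.5%, 58.5% and 89%, with 20 false calls. The gene fit found 77%, 94% and 95%, with 34 false calls. So many planted changes ease the adjusted threshold. The simulation also planted the same change in both pairs, with independent noise and no centring, so its rates need not hold for these arrays. In the real data CXCL6, past 4-fold, was not called. The 0 calls therefore do not show that shared changes of such sizes are absent. With the block, each gene's own residual spread is how far the 2 pair differences disagree, and only the LhTERTL pair also differs in hTERT. These p-values therefore rest on 4 single lines and on no spread between replicates. CXCL6, UHRF1 and H4C8 were named for going the same way in both pairs, so their small SEs are no added support.

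Along the genome, running medians over 25 neighbouring measured genes had their 1st and 99th percentiles at -0.23 and 0.22 (19134 windows). The highest lay on the short arm of chromosome X, from GLRA2 to SCML2, with a median of 0.73, 19 of 25 genes above 0 and 7 at least 2-fold higher. The median by array was 0.47 in mock/cre+ and -0.14 in mock, and -0.04 in LhTERTL/cre+ and 0.04 in LhTERTL. RAI2 stood at 1.64 in mock/cre+ and -1.64 in mock, a difference of 3.28, PIR, an iron-binding nuclear protein, at 0.49 in mock/cre+ and -1.09 in mock, a difference of 1.58, and ASB9, an ankyrin repeat ubiquitin ligase subunit, at 1.03 in mock/cre+ and -0.48 in mock, a difference of 1.51. In the LhTERTL pair these 3 were not on one side of 0, at -5.19, -2.77 and 2.53.

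The windows with medians of at least 0.3 around it spanned RAB9A to EIF2S3, 57 genes with a median of 0.32, of which 45 were above 0 and 8 at least 2-fold higher. The other 639 measured genes of chromosome X had a median of -0.0015, and the stretch's median in the LhTERTL pair was -0.13. Whole chromosomes had medians between -0.10 (chromosome 11) and 0.03 (chromosome 10). The lowest window lay on chromosome 20, from MKRN7P to PELATON, with a median of -0.34 and 0.09 in the LhTERTL pair. Of its 25 genes, 5 were above 0, 1 was at least 2-fold higher (2.51) and 0 were at least 2-fold lower. Its 3 lowest were CEBPB, a transcription factor of the ATF4 list, at -0.97, SULF2 at -0.67 and DDX27 at -0.64. DNA copy number was not measured.

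**Figure D5:**
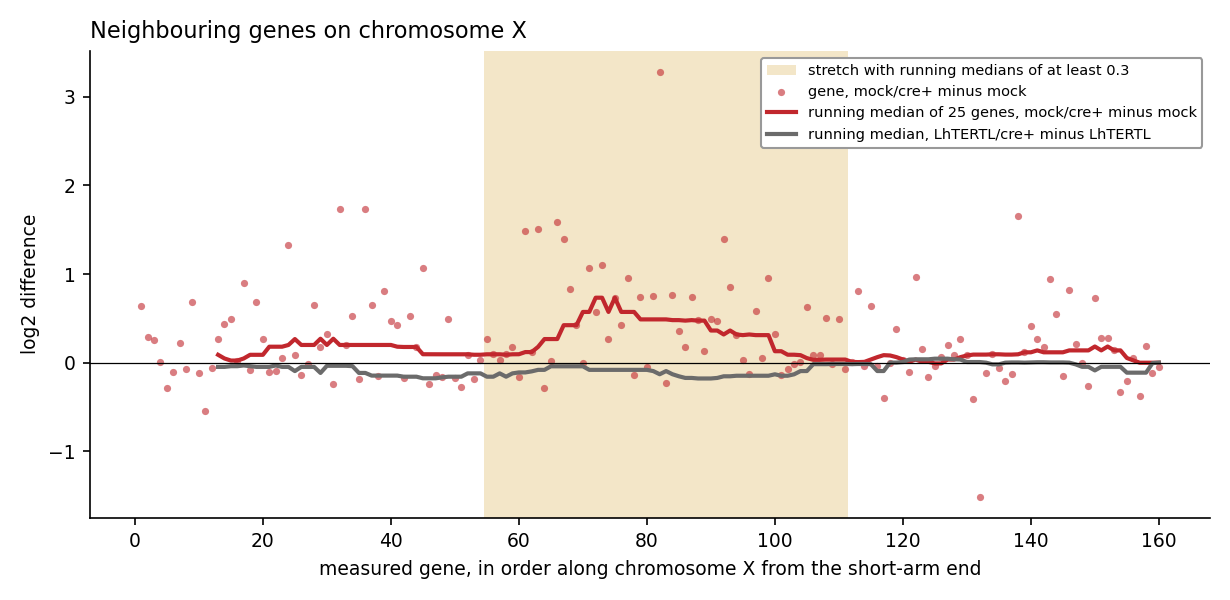
Log2 difference of mock/cre+ minus mock (red points, vertical axis) for measured genes in order along the first part of chromosome X (horizontal axis), with the running median of 25 genes in mock/cre+ minus mock (red line) and in LhTERTL/cre+ minus LhTERTL (grey line), and the stretch of 57 genes shaded. The red line reached 0.73 in the stretch, where the grey line was below 0.

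The authors deposited a list of probe sets as higher and one as lower, chosen on these same 4 arrays, and no source used here gives the rule. In mock/cre+ minus mock the higher list had a median of -0.77, with 114 probe sets below 0 and 10 above, 39 at least 2-fold lower and 1 higher. The lower list had a median of 0.71, with 118 above 0 and 11 below, 41 at least 2-fold higher and 2 lower. By array the higher list stood at -0.70 in mock/cre+ and 0.03 in mock, and at -0.03 in LhTERTL/cre+ and 0.74 in LhTERTL, and the lower list at 0.72 in mock/cre+ and -0.05 in mock, and at 0.05 in LhTERTL/cre+ and -0.77 in LhTERTL. In both lists mock/cre+ and LhTERTL were thus the outer arrays and mock lay near the middle.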

How the data were processed

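RNA from 4 PC-3 derivatives was hybridised, after biotin labelling, to 1 U133 Plus 2.0 array (Affymetrix) per line, per the labels' protocols. The deposited log2 values had been computed with RMA, per the submitters' processing notes; RMA corrects background, quantile-normalizes arrays and summarises probes, and no source used here states its version. Each probe set's deposited values had a median of 0 over the 4 arrays (largest 5e-07), so they had been centred and no filter on low values could be made.

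Differences were taken as mock/cre+ minus mock over 54613 probe sets, 62 Affymetrix controls left out. A platform annotation gave 1 gene symbol to 41091 probe sets, several to 1801 and none here to 11721; 41037 were matched by Entrez number to RefSeq genes (GRCh38.p14), which left every symbol as it was. Genes were the mean over their probe sets with 1 symbol (10523 of 19775 genes had several). The 46 gene lists, their members and the comparison itself were chosen with earlier results of these data known.

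Named genes were TERT; up to 10 highest and 10 lowest genes with every probe set at least 2-fold apart; up to 4 members of each list with the largest difference; up to 6 each way at least 2-fold apart in the same or opposite ways in both Cre pairs; 3 with probe sets in opposite directions; and 3 of the highest and lowest window. Further list members, BHLHA15 and PRTFDC1 were named after their values were seen. Cre status was fitted with limma 3.58.1 (lmFit and eBayes; R 4.3.3), checked first on simulated arrays. Windows of 25 measured genes followed RefSeq order. Alternatives were another fold, gene summary, scaling, probe set selection, fit without the block and window size. The authors' deposited lists were used by probe set name only, since in the lower one the values under the LhTERTL and mock/cre+ headers were exchanged. Python 3.11.15, numpy 2.4.6, pandas 2.3.3 and matplotlib 3.10.9 were used for the rest.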

Additional observations from a re-analysis of the deposited data

Results flagged for a closer look

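These 12 genes had differences of opposite sign in the 2 pairs with and without Cre, each at least 2-fold, and are listed for that reason. The value given is the difference in the mock pair (mock/cre+ minus mock) minus that in the LhTERTL pair (LhTERTL/cre+ minus LhTERTL). With 1 array per line it was not tested. Higher in mock/cre+ and lower in LhTERTL/cre+ were CYP1B1 (9.36), ZIC2 (9.21), RAI2 (8.47), RTN1 (7.82), CSTA (7.71) and COXFA4L3 (6.93). Lower in mock/cre+ and higher in LhTERTL/cre+ were HIKESHI (-3.81), TMEM47 (-3.79), FRMD3 (-3.40), PI3 (-3.08), CHAC1 (-2.84) and NBPF8 (-2.78). For HIKESHI, a nuclear import carrier of HSP70, the LhTERTL array alone was far from 0, at -2.16, with -0.51 in mock/cre+ and 0.58 in mock.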

How the results depend on the processing

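Counts moved with the fold asked for. At 1.5-fold there were 3305 probe sets higher and 2129 lower, 1177 genes higher and 655 lower, and 646 probe sets higher and 365 lower in both Cre pairs. At 4-fold there were 169 probe sets higher and 18 lower. With the values of both arrays quantile matched, 675 probe sets were lower. Taking the probe set of highest SD for each gene gave 771 genes higher and 242 lower. That SD was taken over these same 4 arrays, so the choice favours large differences. The correlation of the 2 Cre differences changed sign, from -0.0912 (Pearson) to 0.00755 (Spearman). Of the 46 lists, 7 had a median at least 0.5 from 0, against 9 with the probe set of highest SD and 5 without _x_at and _s_at probe sets. The 28 values of those 7 under 4 alternatives all kept their sign, with 7 moved by over 0.1, but CDK inhibitors were nearer to 0 than 0.5 under 3 of 4 (-0.47, -0.40 and -0.48) and heat shock genes under 1 (0.12). Limma without the telomere block called 0 probe sets (smallest adjusted p = 0.789, with 1902 higher and 1445 lower at an unadjusted p under 0.05) and 0 genes (0.772, with 738 and 505). Windows of 15 and 51 genes, chosen after seeing the data, had their highest median on chromosome X (0.73 and 0.42) and their lowest on chromosome 20 (-0.46 and -0.24). The fit with the telomere block pairs lines by telomere group; no pairing by replicate number was possible because the labels give none and each line has 1 array. Precision is limited by that 1 array, and signal over background cannot be read from centred values, so dim and bright genes could not be told apart.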
